A study of Mus musculus with 8 samples.

Results

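A group of 10 immediate early genes and their relatives was followed in RNA-seq of mouse embryonic stem cells (mESCs) with and without Importin-13 (IPO13), a nuclear transport receptor that carries cargoes both into and out of the nucleus. The 10 genes are the early growth response factors Egr1, Egr2 and Egr3, the immediate early response genes Ier2, Ier3 and Ier5, and Dusp1, Srf, Nr4a1 and Arc. They were chosen by name from 23420 gene symbols, and all 10 were among the 19424 genes that were tested, each with 1 count or more in some library. Cells of 2 genotypes, IPO13+/+ (wild type) and IPO13-/-, were derived from day 5 preimplantation blastocysts of a mixed 129 x C57BL/6 background and were all grown without feeders in medium with serum and the cytokine LIF. Each genotype was left untreated or was stressed with 125 µM H2O2 for 1 h and then given 2 h in fresh medium, with 2 libraries in each of the 4 groups. The sources used here do not say whether untreated cells were given fresh medium as well. A change after stress may thus come from H2O2 or from the change of medium, which cannot be told apart here. The sources used here do not say how many clones stand behind each genotype, or whether the 2 libraries of a group came from separate cultures, so p-values measure only the spread between these libraries, which may be technical.

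Immediate early genes are switched on by signals without new protein synthesis, through factors already present in the cell such as SRF with its ETS partners and CREB, and much of their RNA is short-lived. EGR1, EGR2 and EGR3 are zinc finger factors that bind GC-rich sites, and the NAB proteins are co-repressors that bind EGR factors. SRF binds the CArG box and drives both immediate early and cytoskeletal genes. NR4A1 is an orphan nuclear receptor, DUSP1 a phosphatase that switches off MAP kinases, and ARC a protein known for its part at the synapses of neurons.

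Between 60397877 and 73789079 reads were counted on genes in a library, so that 3 counts, taken as the smallest number told from 0, stood for 0.0407 to 0.0497 CPM (counts scaled to the library total, with counting error alone considered). The Ipo13 transcript was lower but still present in the IPO13-/- libraries, at 24.9 to 25.9 CPM against 68.3 to 72.4 CPM in IPO13+/+. All other CPM values here are scaled with TMM factors, which correct for differences in library composition. The 8 pluripotency markers, among them Pou5f1 and Nanog, summed to 7028 to 7506 CPM in IPO13+/+ and to 6123 to 6278 CPM in IPO13-/- libraries, ranges that did not overlap. Only Nanog was not lower on average in IPO13-/- cells, at 569 against 527 CPM without stress and 413 against 411 CPM with it. Of the 8, 5 were lower and 1 was higher without stress at an edgeR FDR below 0.05, beside 19.4% and 18.7% of all genes. With stress 2 were lower and 0 higher, beside 17.5% and 19.1% of all genes. Dppa5a stood at 1294 against 1942 CPM without stress and at 1477 against 2044 CPM with it. Tfcp2l1 stood at 779 against 1075 CPM without stress and at 779 against 969 CPM with it. The 8 fibroblast markers summed to 6.44 to 9.44 CPM in all libraries. The 8 primitive endoderm markers summed to 25.8 and 22.6 CPM in the untreated IPO13+/+ libraries and to 17.1 to 19.9 CPM in the other 6, without overlap, and the part of cell makeup in the results below was not tested. In bulk RNA, fewer cells of a type and less RNA per cell cannot be told apart.

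Promoter windows were found in the RefSeq table (GRCm38.p6) for 6 of the 10 genes. Egr1, Egr3, Ier2 and Arc had none, so their promoters were not searched. The stretches shown here belong to genes that rose after stress in both genotypes (Ier5, Dusp1 and Nr4a1) or fell in both (Srf and Egr2). They are given 5′ to 3′ on the strand of the gene, and capitals mark matches on either strand to the motifs searched, some of which overlap, while a match that runs past the end of a stretch, as in Dusp1 and Egr2, is left in lower case. The motifs were the CArG box, the CRE core TGACG, the ETS core CCGGAA, the EGR site GCGNGGGCG, the SP and KLF site GGGCGG, the AP-1 site TGANTCA, the heat shock site GAANNTTC and the antioxidant site TGACNNNGC.
Ier5, chr1:155099637-155099886, minus strand: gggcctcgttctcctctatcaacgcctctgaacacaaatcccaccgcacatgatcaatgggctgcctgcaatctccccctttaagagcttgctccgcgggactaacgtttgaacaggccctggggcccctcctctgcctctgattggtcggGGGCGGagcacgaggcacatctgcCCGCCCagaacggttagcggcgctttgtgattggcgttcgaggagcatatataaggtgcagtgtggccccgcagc
Dusp1, chr17:26508520-26508722, minus strand: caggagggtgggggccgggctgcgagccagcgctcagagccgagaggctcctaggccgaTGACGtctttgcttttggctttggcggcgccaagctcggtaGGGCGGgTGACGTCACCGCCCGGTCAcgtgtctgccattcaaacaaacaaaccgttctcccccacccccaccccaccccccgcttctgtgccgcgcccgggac
Nr4a1, chr15:101266596-101266845, plus strand: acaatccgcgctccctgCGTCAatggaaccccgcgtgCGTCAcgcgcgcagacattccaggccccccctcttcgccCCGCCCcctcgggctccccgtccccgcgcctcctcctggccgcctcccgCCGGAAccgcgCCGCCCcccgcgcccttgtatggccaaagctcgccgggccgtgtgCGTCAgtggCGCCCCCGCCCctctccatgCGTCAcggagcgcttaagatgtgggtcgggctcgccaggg
Srf, chr17:46556176-46556412, minus strand: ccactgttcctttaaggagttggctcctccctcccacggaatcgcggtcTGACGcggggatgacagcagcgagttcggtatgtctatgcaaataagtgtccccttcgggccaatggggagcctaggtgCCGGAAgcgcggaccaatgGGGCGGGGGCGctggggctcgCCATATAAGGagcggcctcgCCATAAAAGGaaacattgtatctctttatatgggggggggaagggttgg
Egr2, chr10:67537787-67537816, plus strand: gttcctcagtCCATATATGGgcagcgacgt

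The CArG box occurred in 1.47% of all 32851 windows of 250 bases and was found upstream of Srf and Egr2. Srf held a pair of them, 82 to 73 and 62 to 53 bases before its start. Egr2, which has more than 1 start, held 1 at 72 to 63 bases before a start at position 67537869. A different CArG box of Egr2 lay 72 to 63 bases before a start at position 67537566. The CRE core, present in 17.8% of windows, matched 4 times in Nr4a1 and 3 times in Dusp1, where a match on each strand forms a full palindrome. It also lay 201 to 197 bases before the start of Srf, and 111 to 107 and 55 to 51 bases before the Egr2 start at 67537869. Ier5 and Ier3 held no motif of the list other than GGGCGG, which stands in 32.7% of windows. The ETS core was present in 12% of windows, the EGR site in 4.7%, the antioxidant site in 10.2%, the AP-1 site in 6.75% and the heat shock site in 6.69%. A match describes the letters of a window and does not show that a factor binds there.

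**Figure D1:**
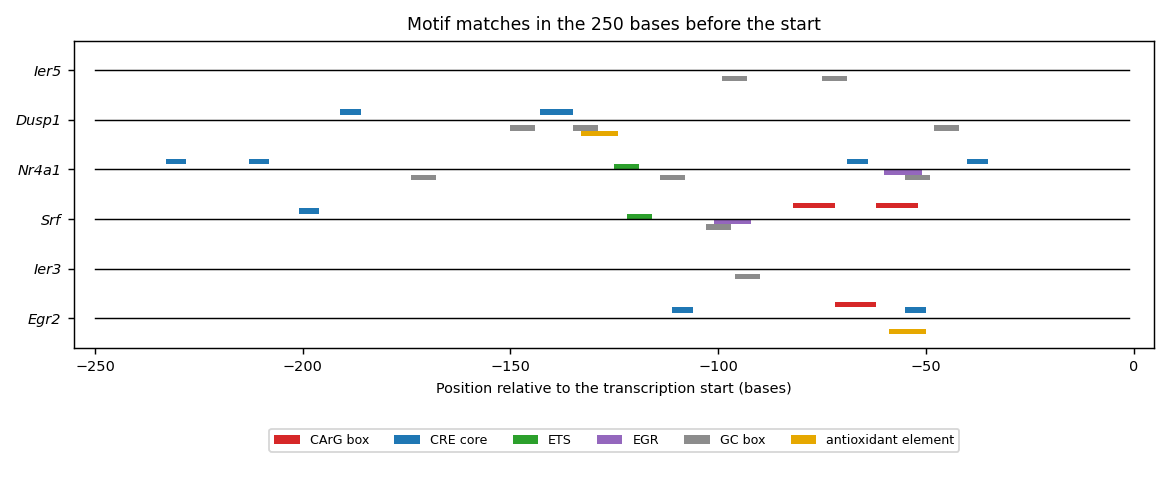
Position of each motif match, in bases relative to the start and coloured by motif, upstream of the transcription start, for the 6 genes with a promoter window, with 1 of the starts of Egr2 drawn. The CArG boxes of Srf and Egr2 lie within 82 bases of the start, and the 4 CRE cores of Nr4a1 are spread from 233 to 36 bases before it.

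After stress, 7 of the 10 genes changed in IPO13+/+ cells at an FDR below 0.05 (edgeR's quasi-likelihood test with Benjamini-Hochberg adjustment over all genes tested), 4 higher and 3 lower, beside 25.3% of all genes tested in either direction (11.5% higher and 13.8% lower). In IPO13-/- cells 8 changed, 5 higher and 3 lower, beside 29.4% of all genes (14.9% higher and 14.4% lower). Ier5, Dusp1, Nr4a1 and Arc rose in both genotypes and Egr1, Egr2 and Srf fell in both, while Ier2 and Ier3 passed in neither. The fifth gene to rise in IPO13-/- cells was Egr3, whose difference between responses did not pass (0.24, 95% interval -0.32 to 0.80, edgeR FDR = 0.77). Few changes reached 2-fold. In IPO13+/+ only Egr2 was called lower with this added threshold (0.149% of all genes), and none was called higher (2.75%, or 2.9% in either direction). For that count of 0, 4 genes were higher at an unadjusted p under 0.05, and limma-voom and DESeq2 also called 0. Among IPO13-/- cells only Ier5 was called higher (2.52% of all genes) and none lower (0.371%, or 2.89% in either direction), with 3 lower at an unadjusted p under 0.05 and 0 by limma-voom and DESeq2. Over the 10 genes the log2 fold change had a median of 0.13 for IPO13+/+ and 0.23 for IPO13-/-, beside medians within 0.01 of 0 over all genes. All stressed libraries were taken at the same time, 2 h after the exposure ended. Earlier changes could not be seen, so a fall or no change here does not exclude an earlier rise.

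**Figure D2:**
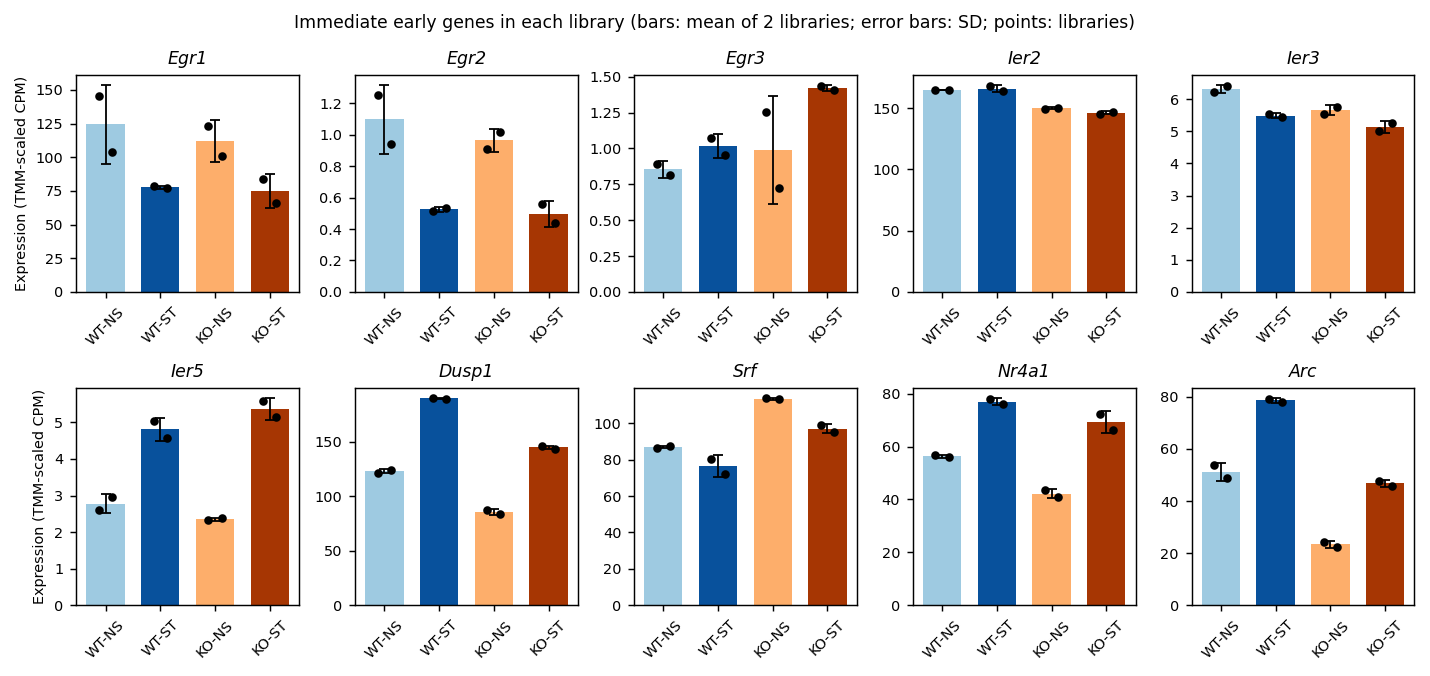
TMM-scaled CPM of the 10 genes in each group, with WT for IPO13+/+, KO for IPO13-/-, NS for untreated, ST for stressed, points for the 2 libraries, bars for the group mean and error bars for the SD. Arc and Dusp1 were lowest in untreated IPO13-/- libraries and highest in stressed IPO13+/+ libraries, and Srf was highest in untreated IPO13-/- libraries.

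Egr1 (chr18:34859823-34864984, plus strand, GRCm38) was the most abundant EGR gene and fell after stress. For IPO13+/+, 9737 and 7254 untreated counts stood against 5339 and 5315 stressed counts, or 145 and 104 CPM against 78.5 and 76.9 CPM. In IPO13-/- libraries 9311 and 6280 counts (123 and 101 CPM) stood against 5420 and 4089 (83.7 and 66.1 CPM). Untreated libraries were above stressed libraries in both genotypes without overlap, although replicates of 3 of the 4 groups lay 0.28 to 0.49 apart on the log2 scale. The first library was above the second in all 4 groups. Egr1 fell by 0.68 on the log2 scale in IPO13+/+ (SE 0.10, edgeR FDR = 7.7e-06) and by 0.58 in IPO13-/- cells (SE 0.10, edgeR FDR = 5.5e-05). The value in IPO13+/+ was -0.41 without the first untreated library and still passed (edgeR FDR = 7.2e-05). Without the first untreated IPO13-/- library the fall there was -0.43 and no longer passed (edgeR FDR = 0.090). The difference between the genotypes' responses was 0.10, with a 95% interval from -0.20 to 0.39 (edgeR FDR = 0.85).

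Between genotypes the Egr1 libraries overlapped in both conditions. The log2 difference of IPO13-/- from IPO13+/+ was -0.15 without stress (95% interval -0.35 to 0.06, edgeR FDR = 0.27) and -0.05 with it (95% interval -0.26 to 0.16, edgeR FDR = 0.75). With the replicate number fitted as a block the untreated value was -0.14 and passed (edgeR FDR = 0.0075). Pairing by that number was not established. Without a block, the untreated value changed with the library left out. It was 0.12 without the first untreated IPO13+/+ library, and -0.37 without the second, where it passed (edgeR FDR = 0.00012).

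Egr2 (chr10:67535475-67542188, plus strand), an EGR factor known from hindbrain and Schwann cell development, was present far below the Egr1 level and fell as well. IPO13+/+ libraries had 84 and 66 counts before and 35 and 37 after stress, and IPO13-/- libraries 69 and 63 before and 36 and 27 after. The fall was -1.06 on the log2 scale in IPO13+/+ (SE 0.20, edgeR FDR = 0.00024) and -0.94 in IPO13-/- cells (SE 0.22, edgeR FDR = 0.0012), with no overlap in either. Without the first untreated IPO13+/+ library the fall in IPO13+/+ was -0.84 and did not reach 2-fold. Genotypes overlapped in both conditions, with log2 differences of -0.19 without stress (95% interval -0.55 to 0.17) and -0.08 with it (95% interval -0.58 to 0.43).

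Egr3 (chr14:70077203-70082614, plus strand), whose product binds the same kind of site as EGR1, did not pass as lower in either genotype. Counts were 60 and 57 in untreated and 73 and 66 in stressed IPO13+/+ libraries, and 95 and 45 in untreated and 93 and 87 in stressed IPO13-/- libraries. In CPM the stressed IPO13-/- libraries, at 1.44 and 1.41, were above all others, while the untreated IPO13-/- pair was spread from 0.725 to 1.25. Its log2 fold change after stress was 0.25 in IPO13+/+ (SE 0.20, edgeR FDR = 0.44) and 0.49 in IPO13-/- cells (SE 0.18, edgeR FDR = 0.045). The latter passed in 6 of 16 alternative analyses. It was 0.97 without the first untreated IPO13-/- library (edgeR FDR = 0.0051) and 0.20 without the second (edgeR FDR = 0.49). Between genotypes the stressed libraries also differed by 0.49 (SE 0.18, edgeR FDR = 0.038), which passed in 8 of 16 alternatives.

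Srf (chr17:46548329-46556175, minus strand) fell slightly with stress and was higher in IPO13-/- cells. Its level was 86.5 and 87.3 CPM in untreated and 80.6 and 72.1 CPM in stressed IPO13+/+ libraries, against 113.6 and 113.0 CPM in untreated and 98.8 and 95.3 CPM in stressed IPO13-/- libraries. All 4 IPO13-/- libraries lay above all 4 IPO13+/+ libraries. It fell by 12.2% with stress in IPO13+/+ (log2 -0.19, SE 0.05, edgeR FDR = 0.0039) and fell by 14.3% in IPO13-/- cells (log2 -0.22, SE 0.05, edgeR FDR = 0.00053). Without the second stressed IPO13+/+ library the first of these was -0.11 (edgeR FDR = 0.23). The genotype difference was 0.38 without stress (SE 0.05, edgeR FDR = 2.0e-07) and 0.35 with it (SE 0.05, edgeR FDR = 1.2e-06).

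Nr4a1 (chr15:101254269-101274795, plus strand) rose after stress in both genotypes, and more in IPO13-/- cells. It stood at 56.7 and 56.0 CPM in untreated and 77.9 and 76.0 CPM in stressed IPO13+/+ libraries, and at 43.5 and 40.9 CPM in untreated and 72.2 and 66.2 CPM in stressed IPO13-/- libraries. No groups overlapped, and the genotypes lay closer together with stress than without. The rise was 0.45 in IPO13+/+ (SE 0.05, edgeR FDR = 3.2e-08) and 0.71 in IPO13-/- cells (SE 0.05, edgeR FDR = 5.8e-12) on the log2 scale. Their difference, 0.26 (SE 0.07), passed in this fit (edgeR FDR = 0.035) and in 5 of 15 alternatives, and not with limma-voom (FDR = 0.10) or DESeq2 (FDR = 0.083). Compared with IPO13+/+, Nr4a1 was lower in IPO13-/- cells without stress (log2 -0.41, SE 0.05, edgeR FDR = 1.3e-07) and with it (log2 -0.15, SE 0.05, edgeR FDR = 0.013). The latter was lost without the first stressed IPO13+/+ library (-0.13, edgeR FDR = 0.13) or the second stressed IPO13-/- library (-0.091, edgeR FDR = 0.25).

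Ier2 (chr8:84661331-84662852, minus strand), which encodes a small nuclear protein induced by growth factors, was the most abundant of the 10 per kilobase of exon and moved little. It lay at 164.8 and 164.5 CPM in untreated and 168.1 and 163.8 CPM in stressed IPO13+/+ libraries, and at 149.3 and 150.3 CPM in untreated and 145.3 and 147.2 CPM in stressed IPO13-/- libraries. Its log2 fold change with stress was 0.01 in IPO13+/+ (95% interval -0.07 to 0.09) and -0.03 in IPO13-/- cells (95% interval -0.12 to 0.05). Levels were lower in IPO13-/- cells, at -9.02% without stress (log2 -0.14, SE 0.04, edgeR FDR = 0.0069) and -11.8% with it (log2 -0.18, SE 0.04, edgeR FDR = 0.00054), with no overlap in either condition. The untreated difference did not pass with library totals in place of TMM factors (-0.06, edgeR FDR = 0.31), without the first untreated IPO13-/- library (-0.11, edgeR FDR = 0.11), or in a fit of only the 4 libraries compared (edgeR FDR = 0.052).

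Ier3 (chr17:35821684-35822923, plus strand), which encodes a stress-inducible protein known as a regulator of cell survival, did not pass in any of the 5 tests. IPO13+/+ libraries had 418 and 449 counts before and 377 and 376 after stress, and IPO13-/- libraries 420 and 358 before and 324 and 326 after. In CPM the stressed libraries were below the untreated ones in both genotypes without overlap, at log2 -0.20 in IPO13+/+ (95% interval -0.36 to -0.04, edgeR FDR = 0.057) and -0.14 in IPO13-/- cells (95% interval -0.30 to 0.03, edgeR FDR = 0.24).

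Ier5 (chr1:155096361-155099636, minus strand), a single-exon gene whose product is known to act on heat shock factor 1, had the largest rise of the 10. Counts went from 174 and 208 to 342 and 317 in IPO13+/+ and from 176 and 148 to 361 and 319 in IPO13-/- libraries. Stressed libraries lay well above untreated ones in both. The rise was 1.73-fold in IPO13+/+ (log2 0.79, SE 0.10, edgeR FDR = 5.4e-07) and 2.28-fold in IPO13-/- cells (log2 1.19, SE 0.10, edgeR FDR = 3.3e-10). The difference between these responses was 0.40 on the log2 scale, with a 95% interval from 0.11 to 0.70, and did not pass after adjustment (edgeR FDR = 0.14). Between genotypes Ier5 was -0.24 without stress (edgeR FDR = 0.093) and 0.16 with it (edgeR FDR = 0.18), the only one of the 10 whose genotype difference was negative without stress and positive with it, and neither passed. Without the first untreated IPO13+/+ library the former was -0.34 (edgeR FDR = 0.045).

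Dusp1 (chr17:26505590-26562128, minus strand) rose after stress and was lower in IPO13-/- cells in both conditions. Its level went from 121.8 and 124.3 CPM to 190.0 and 189.7 CPM in IPO13+/+ libraries, and from 87.3 and 83.4 CPM to 146.0 and 143.7 CPM in IPO13-/- libraries. No groups overlapped. The rise was 1.54-fold in IPO13+/+ (log2 0.63, SE 0.04, edgeR FDR = 1.9e-12) and 1.70-fold in IPO13-/- cells (log2 0.76, SE 0.04, edgeR FDR = 3.6e-14), and the difference of 0.14 between them did not pass (95% interval 0.02 to 0.26, edgeR FDR = 0.24). The genotype difference was -30.6% in untreated cells (log2 -0.53, SE 0.04, edgeR FDR = 6.1e-11) and -23.7% in stressed ones (log2 -0.39, SE 0.04, edgeR FDR = 1.2e-08). Its annotation shares 11 exon bases with Ergic1 on the opposite strand, and no other of the 10 genes shares exon bases with another gene.

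Arc (chr15:74669083-74672570, minus strand) differed most between genotypes. The untreated IPO13+/+ libraries held 3608 and 3417 counts (53.8 and 48.8 CPM) and the untreated IPO13-/- libraries 1847 and 1393 (24.4 and 22.4 CPM). After stress these became 5393 and 5397 counts (79.3 and 78.1 CPM) in IPO13+/+ and 3097 and 2830 (47.8 and 45.7 CPM) in IPO13-/- libraries. Stressed IPO13-/- cells lay just below the level of untreated IPO13+/+ cells. The difference of IPO13-/- from IPO13+/+ was -54.3% without stress (log2 -1.13, SE 0.05, edgeR FDR = 2.5e-15) and -40.5% with it (log2 -0.75, SE 0.05, edgeR FDR = 3.7e-12). It rose 1.53-fold after stress in IPO13+/+ (log2 0.62, SE 0.05, edgeR FDR = 1.9e-10) and 2.00-fold in IPO13-/- cells, just under the 2-fold threshold (log2 1.00, SE 0.05, edgeR FDR = 4.7e-14). These responses differed by 0.38 (SE 0.07, 95% interval 0.23 to 0.53, edgeR FDR = 0.0034), and the difference passed in 13 of 15 alternatives. It was 0.42 without the first untreated IPO13-/- library (edgeR FDR = 0.080) and 0.32 without the second (edgeR FDR = 0.12).

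**Figure D3:**
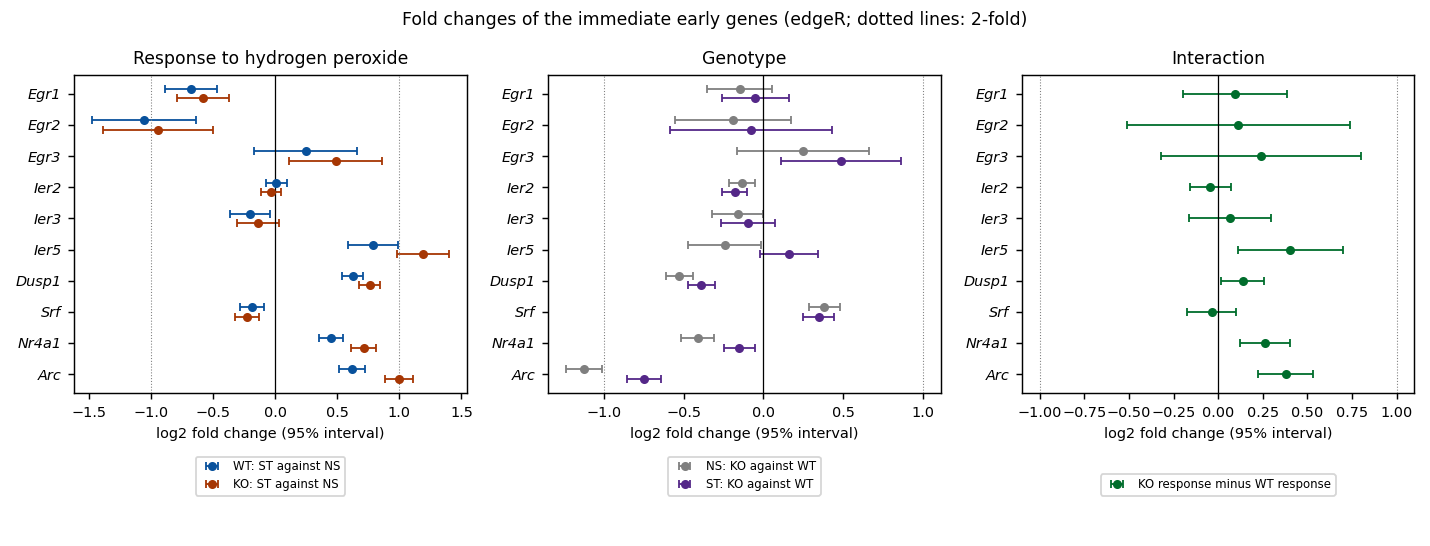
Log2 fold changes of the 10 genes with 95% intervals from edgeR, for stress in each genotype (left), for IPO13-/- against IPO13+/+ in each condition (middle) and for the difference between the stress responses (right). Arc and Nr4a1 are the genes whose difference between responses passed an FDR below 0.05.

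Between genotypes, 5 of the 10 genes differed without stress, 1 higher and 4 lower in IPO13-/- cells, beside 38.2% of all genes tested (18.7% higher and 19.4% lower). With stress 6 differed, 2 higher and 4 lower, beside 36.6% of all genes (19.1% higher and 17.5% lower). Srf was higher and Ier2, Dusp1, Nr4a1 and Arc were lower in both conditions, and Egr3 was higher with stress. Arc without stress was the only one past 2-fold (1.84% of all genes lower, 2.86% higher and 4.71% in either direction), and none was called with stress (2.58% of all genes higher, 1.98% lower and 4.56% in either direction), where 2 were higher and 4 lower at an unadjusted p under 0.05 and limma-voom and DESeq2 called 0. The responses to stress differed between genotypes for 2 of the 10 genes, both with the higher log2 response in IPO13-/- cells, beside 2.01% of all genes in that direction, 0.705% in the other and 2.71% in either. In the other direction 0 passed with edgeR, also at an unadjusted p under 0.05, and 0 with limma-voom and DESeq2.

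Per kilobase of exon (the union of annotated exons), the order of the 10 genes ran from Ier2, at 96.1 to 109 CPM per kb, down to Egr2 and Egr3, at 0.146 to 0.323 CPM per kb. Dusp1 came second in untreated IPO13+/+ cells at 37.2 CPM per kb and Srf second in untreated IPO13-/- cells at 39.2 CPM per kb. Neighbours whose libraries overlapped were Srf and Egr1, and Arc and Nr4a1, in untreated IPO13+/+ cells, and Srf and Arc in stressed ones. In IPO13-/- cells Dusp1 and Egr1, and Egr2 and Egr3, overlapped without stress, and Egr1 and Arc with it. Egr2 was above Egr3 in untreated IPO13+/+ cells, at 0.323 against 0.194 CPM per kb, and below it in the stressed cells of both genotypes.

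Other genes of the response were taken from lists chosen with earlier results of these data known. Of 30 other immediate early genes, 20 rose and 3 fell after stress in IPO13+/+ cells, beside 11.5% and 13.8% of all genes. In IPO13-/- cells 17 rose and 4 fell, beside 14.9% and 14.4% of all genes. The list's median log2 fold changes were 0.24 and 0.38, against all-gene medians within 0.01 of 0. Among those past 2-fold were Dusp2, a nuclear MAP kinase phosphatase, and Gadd45g, a growth arrest and DNA damage gene. Dusp2 rose by 2.12 in IPO13+/+ (SE 0.18, edgeR FDR = 3.8e-10) and 1.43 in IPO13-/- cells (SE 0.16, edgeR FDR = 7.7e-08). Gadd45g went from 1.36 and 1.60 CPM to 5.70 and 5.44 CPM in IPO13+/+ and from 1.47 and 1.51 CPM to 9.13 and 9.46 CPM in IPO13-/- libraries. The polo-like kinase gene Plk2 rose by 1.46 and 1.86, and Btg2, an antiproliferative target of p53, by 1.53 and 1.78, in IPO13+/+ and IPO13-/- cells. Egr4, the remaining EGR family member, was at 0.426 and 0.420 CPM in stressed IPO13+/+ and at 1.00 and 0.986 CPM in stressed IPO13-/- libraries (log2 1.23, SE 0.21, edgeR FDR = 2.3e-05).

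The response differed between genotypes for 12 of these 30 genes, 11 with the higher log2 response in IPO13-/- cells and 1, Cyr61, with the higher one in IPO13+/+ cells, beside 2.01% and 0.705% of all genes. Bhlhe40, a circadian and hypoxia-regulated repressor, went from 40.4 and 40.0 CPM to 63.8 and 63.1 CPM in IPO13+/+ libraries and from 27.8 and 27.0 CPM to 73.3 and 74.3 CPM in IPO13-/- libraries. Its responses of 0.66 and 1.43 differed by 0.77 (SE 0.06, edgeR FDR = 2.2e-08). Dusp4, another MAP kinase phosphatase, rose by 0.26 in IPO13+/+ and 1.00 in IPO13-/- cells, a difference of 0.75 (SE 0.07, edgeR FDR = 4.8e-07). Differences of 0.58, 0.45 and 0.43 were found for Maff, a small MAF factor, and for Klf10 and Klf6, Krüppel-like factors (edgeR FDR = 8.5e-06, 3.7e-05 and 7.7e-05). Cyr61, a matricellular gene and target of SRF and YAP, rose by 0.21 in IPO13+/+ and fell by 0.22 in IPO13-/- cells (difference -0.43, SE 0.06, edgeR FDR = 0.00019). Over the alternatives the count higher in IPO13-/- cells ran from 7, without either untreated IPO13-/- library, to 13.

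**Figure D4:**
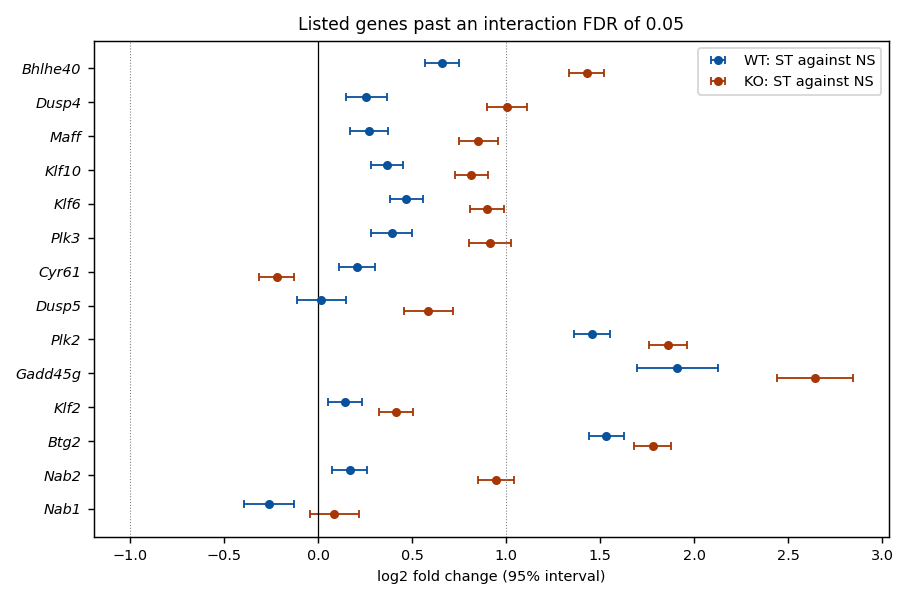
Log2 fold change after stress (ST against NS) in IPO13+/+ (WT) and IPO13-/- (KO) cells, with 95% intervals and dotted lines at 2-fold, for the listed immediate early and upstream genes whose responses differed at an FDR below 0.05. Bhlhe40, Dusp4 and Nab2 rose by 0.75 to 0.78 more in IPO13-/- than in IPO13+/+ cells, and Cyr61 moved the other way.

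Of 26 upstream kinases, factors and partners, 2 rose and 6 fell after stress in IPO13+/+ cells, where 11.5% of all genes rose and 13.8% fell. In IPO13-/- cells 2 rose and 5 fell, beside 14.9% and 14.4% of all genes. Responses differed for Nab1 and Nab2, the co-repressors of EGR factors. Nab2 stood at 47.5 and 47.9 CPM in untreated and 54.3 and 52.8 CPM in stressed IPO13+/+ libraries, and at 36.02 and 34.91 CPM against 70.0 and 66.6 CPM in IPO13-/- libraries. Its difference between responses was 0.78 (SE 0.07, edgeR FDR = 2.2e-08), and that of Nab1 was 0.35 (SE 0.09, edgeR FDR = 0.036), which did not pass with limma-voom (FDR = 0.11) or DESeq2 (FDR = 0.13). Egr1 RNA fell in both genotypes, and its relation to the Nab2 response was not tested.

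Of 16 cytoskeletal targets of SRF, 8 fell after stress in IPO13+/+ (13.8% of all genes) and 6 fell in IPO13-/- cells (14.4% of all genes). Between untreated genotypes 7 were higher and 2 lower in IPO13-/- cells, beside 18.7% and 19.4% of all genes. Myl9, a myosin light chain, was higher in untreated IPO13-/- cells by 1.03 (SE 0.09, edgeR FDR = 9.6e-10). Acta2, smooth muscle actin, was too, with 38 and 23 counts against 2 and 12 (log2 2.10, SE 0.45, edgeR FDR = 0.00048), of which 1 lies under the 3 counts told from 0. Tagln, an actin-binding protein, differed in response by -0.47 (SE 0.13, edgeR FDR = 0.048), which did not pass with limma-voom (FDR = 0.15) or DESeq2 (FDR = 0.20).

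Of 8 AP-1 genes, 7 rose in IPO13+/+ (11.5% of all genes) and 6 in IPO13-/- cells (14.9% of all genes), with medians of 1.03 and 0.56. Fosl1 rose by 2.19 and 2.295 and Atf3 by 2.05 and 1.63. Fos rose from 17.1 and 14.9 CPM to 37.1 and 38.2 CPM in IPO13+/+ and from 12.2 and 10.4 CPM to 17.4 and 17.3 CPM in IPO13-/- libraries, a difference of -0.62 (SE 0.10, edgeR FDR = 0.00021). Fosb differed by -1.14 (SE 0.17, edgeR FDR = 0.00016), Jun by -0.40 and Fosl2 by 0.49. Without the first untreated IPO13-/- library Fos and Fosb were -0.52 and -0.82 and did not pass (edgeR FDR = 0.077 and 0.083). The response was higher in IPO13-/- cells for 1 AP-1 gene and higher in IPO13+/+ cells for 3, beside 2.01% and 0.705% of all genes, and the contrast with the other lists was not tested.

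**Figure D5:**
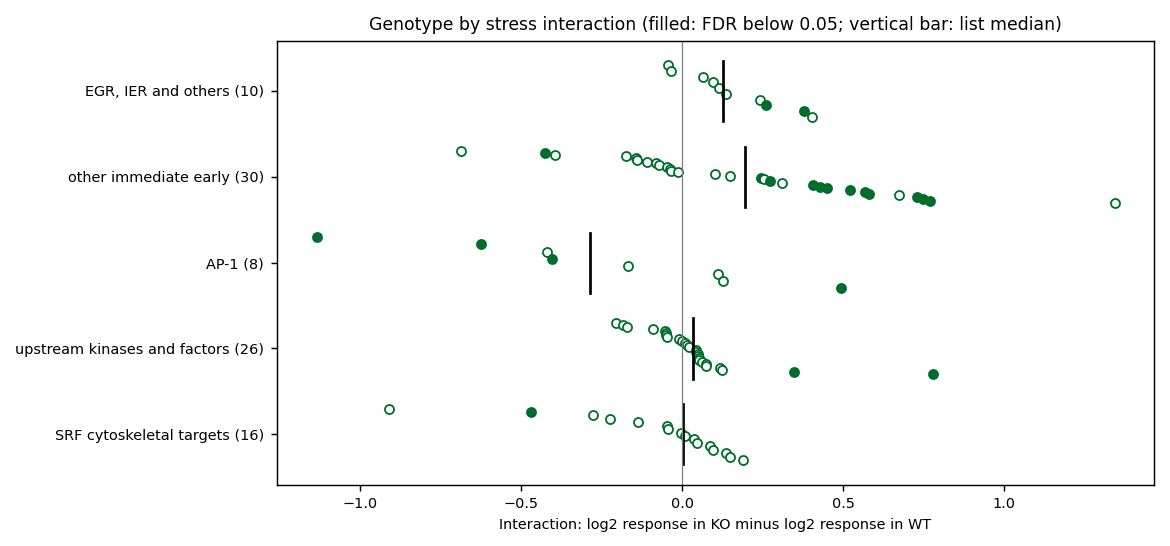
Difference between the stress responses (IPO13-/-, KO, minus IPO13+/+, WT, log2) of each gene of the lists, with filled points for an FDR below 0.05 and a bar for the list median. The 10 immediate early genes followed here had a median of 0.13 and the 30 other immediate early genes one of 0.20, beside 0.02 over all genes tested.

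Genes whose level followed most closely that of Egr1 over the 8 libraries, by Pearson correlation of log2 CPM among 11957 genes with at least 50 counts in every library, were Rbm27 (r = 0.991), Ncor1 (r = 0.991) and Col4a3bp (r = 0.989). For Ier2 they were Epha1 (r = 0.992), Parp9 (r = 0.991) and Ankrd35 (r = 0.991), and for Dusp1 they were Notch3 (r = 0.997), Palm3 (r = 0.997) and Sp6 (r = 0.996). The 8 libraries share 4 groups, so that these values describe a like pattern over the libraries and carry no test. They do not describe a like size of change. After stress in IPO13+/+ cells Rbm27, Ncor1 and Col4a3bp changed by -0.15, -0.26 and -0.17 on the log2 scale, against -0.68 for Egr1.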

How the data were processed

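RNA-seq counts of 8 libraries were analysed. The authors mapped reads to mm10, and the submitters' processing notes name STAR 2.3.1 and HTSeq without settings; the strand setting is not given in the sources used here. The authors deposited raw counts per gene symbol and CPM, each count scaled to its library total; the CPM were only compared with the counts. The labels and the Methods name different HiSeq models, lane numbers and read lengths.

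Counts of genes with at least 1 count were fitted in R 4.3.3 with edgeR 4.0.16 (TMM factors, quasi-likelihood test, 1 coefficient per group, all 8 libraries). P-values were adjusted by Benjamini-Hochberg over 19424 genes. A gene passed at an FDR below 0.05, and was called 2-fold where its log2 fold change was also 1 or more in size. The scripts recovered known changes of 2-fold or more when tested on counts simulated with the spread estimated from these libraries. These changes were placed only in stressed IPO13+/+ libraries and only in genes above a minimum summed count. Genes with few counts, such as Acta2, were not covered. Smaller changes were not simulated. With 2 libraries against 2, an exact permutation test cannot go below p = 0.333, so none was run.

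Alternatives were relative log expression factors, library totals, filterByExpr (15191 genes), at least 10 counts (17081 genes), DESeq2 1.42.0, limma-voom (limma 3.58.1), a replicate block, fits of only the 4 libraries compared, and leaving out each library, where the lone library was assumed to vary like the other groups.

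The 10 genes and the gene lists were chosen with earlier results of these data known. Named were the 10 genes and, from each other list, at most 8 genes past the 2-fold call and 5 with the smallest interaction FDR below 0.05. Cyr61 was named outside this rule, as the only gene of its list with the higher response in IPO13+/+ cells. Positions are from GENCODE M21 (GRCm38) and promoter sequences from RefSeq (GRCm38.p6), read with Python 3.11.15.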

Additional observations from a re-analysis of the deposited data

Results flagged for a closer look

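The response to stress differed between the genotypes for 2 of the 10 genes, beside 2.71% of all genes tested, by a test of the difference itself in edgeR. For Arc the log2 fold change after stress was 0.38 larger in IPO13-/- than in IPO13+/+ cells (0.62 against 1.00, edgeR FDR = 0.0034), and the rise was seen in both stressed libraries of each genotype. The Arc difference passed in 13 of 15 alternatives. It was 0.42 without the first untreated IPO13-/- library and 0.32 without the second, and the call was lost in both. For Nr4a1 the log2 fold change was 0.26 larger (0.45 against 0.71, edgeR FDR = 0.035), with the call lost in 10 of 15 alternatives. Groups of 2 libraries are too small for a test of single outlying libraries, and none was made.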

How the results depend on the processing

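Of the results of the 10 genes under the alternatives, read at an FDR below 0.05 with 2-fold (at the FDR alone for the difference between responses), 757 kept their direction and their side of the threshold, 13 lost a call, 6 gained one and 14 turned direction, none of which had passed the FDR in the main analysis. Counts past 2-fold (past the FDR for the difference between responses, which are compared on the log2 scale) that moved were these. Genes lower after stress in IPO13+/+ ran from 0 to 1 when single libraries were left out. Genes higher in IPO13-/- rose from 1 to 2, by Arc, with filterByExpr and with only the 4 libraries compared, and ran from 1 to 2 over left-out libraries, and genes lower ran from 0 to 1. Genes with a larger response in IPO13-/- fell from 2 to 1 with library totals, filterByExpr, at least 10 counts, DESeq2 and limma-voom, and ran from 0 to 2 over left-out libraries. The cause was not tested.

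Direction turned over left-out libraries for Ier2 after stress in IPO13+/+ (-0.0078 to 0.036), for the untreated genotype difference of Egr1 (-0.37 to 0.12), Egr2 (-0.39 to 0.024) and Egr3 (-0.21 to 0.56), for the stressed one of Egr1 (-0.23 to 0.11) and Egr2 (-0.27 to 0.083), and for the difference between responses of Egr1 (-0.17 to 0.32), Egr2 (-0.10 to 0.31), Egr3 (-0.073 to 0.70) and Srf (-0.11 to 0.047). Ier3's difference between responses was -0.0061 with library totals.

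Replicate numbers are shared by the groups, but deviations of same-numbered libraries correlated between -0.036 and 0.373, over 0.1 in 3 of 6 pairs of groups, so that pairing by number was not established. Fitting the replicate number as a block, counts past 2-fold came to 1, 1, 1 and 0 and the differences between responses 2, as without it; Ier3 after stress in IPO13+/+ (FDR = 0.045) and Egr1 between untreated genotypes (FDR = 0.0075) then passed. Over all genes the block moved the differences between responses from 527 to 1291, while limma-voom gave 255 and DESeq2 287. Egr2 and Egr3 rest on 27 to 95 counts a library, and the part of depth in their spread was not tested.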
